A study of Mus musculus with 8 samples.

Results

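The respiratory chain and the ATP synthase are the inner mitochondrial membrane machines of oxidative phosphorylation. Their nuclear genes were taken from the deposited table by symbol: names starting with Nduf, Uqcr or Atp5, names from Cox4 to Cox8, Sdha to Sdhd, and Cycs. This gave 93 of the 23361 genes listed. Of these, 89 reached 1 FPKM (a level scaled to transcript length and to library size) in at least 1 of 4 groups, as did 11158 genes in all. The 4 members below that level were Cox7b2, Cox8b and Cox8c, listed at 0 in every group, and Ndufa4l2, at no more than 0.122 FPKM.

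The samples were established mouse leukaemia lines of strain 129S6, made from bone marrow cells with the fusion oncogene MLL-AF9 and grown with interleukin 3. Floxed cells (Cdc73fl/fl CreERT2) were compared with wild type cells (Cdc73 +/+ CreERT2), each after 24 or 48 h of 7.5 nM 4OHT (4-hydroxytamoxifen), which lets the CreERT2 recombinase act. All 4 groups carried MLL-AF9 and CreERT2 and received 4OHT, and poly(A) RNA from 2 biological duplicates was sequenced in each. The comparison asks what excision of Cdc73, a subunit of the PAF1 complex that accompanies RNA polymerase II, changes in these cells. In the deposited table each group has a single FPKM value for a gene, set by the authors, so the levels below have no SD, and a call means the authors' q-value was under 0.05. Because the floxed and wild type cells are separate lines and no untreated sample was analysed here, an effect of excision and an older difference between the lines cannot be told apart.

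Complex I takes electrons from NADH and complex II takes them from succinate. Both hand them to coenzyme Q, complex III passes them to cytochrome c, and complex IV (cytochrome c oxidase) gives them to oxygen. Complexes I, III and IV pump protons, and complex V (ATP synthase) uses the proton gradient to make ATP. All but complex II also hold subunits encoded in mitochondrial DNA, which were not analysed here. The rule does not take in Cyc1, the cytochrome c1 subunit of complex III, which stood at 172 FPKM in floxed and 195 FPKM in wild type cells at 48 h and was not called.

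Cdc73 stood at 5.96 FPKM in floxed and 26.2 FPKM in wild type cells at 24 h, and at 5.45 FPKM in floxed and 26.9 FPKM in wild type cells at 48 h. Of the 9 myeloid markers found by symbol, 9 reached 1 FPKM, and their summed level was 5348 FPKM in floxed and 4843 FPKM in wild type cells at 24 h, and 3215 FPKM in floxed and 5253 FPKM in wild type cells at 48 h. Most of that sum is Mpo and Elane, the second in a locus entry of 46 genes. Of the 9 markers, 2 were called higher and 2 lower at 24 h. At 48 h 5 were called higher (Csf2rb, Itgam, Ptprc, Csf1r and Cd33) and 3 lower (Elane, Mpo and Kit), with a median difference of 0.45. The share called was 44.4% at 24 h and 88.9% at 48 h, beside 27.6% and 56.8% of all tested genes. No marker of red cells, T cells or striated muscle reached 1 FPKM, and Hbb-b1 and Cd3e were listed at 0 in all groups. Among 5 B cell markers Cd79b alone reached that level, with Pax5 listed at 0, and among 6 of stroma and endothelium Pecam1 alone, with Col3a1 listed at 0. Cd79b was called higher at both times, with 8.21 FPKM in floxed and 0.890 FPKM in wild type cells at 24 h, and 5.90 FPKM in floxed and 1.06 FPKM in wild type cells at 48 h. Pecam1 was called lower at both times, with 3.23 FPKM in floxed and 6.91 FPKM in wild type cells at 24 h, and 2.35 FPKM in floxed and 6.41 FPKM in wild type cells at 48 h. Summed over 4 megakaryocyte markers, the level was 13.2 FPKM in floxed and 1.85 FPKM in wild type cells at 48 h. Most of that was Pf4, at 10.8 FPKM in floxed and 0.977 FPKM in wild type cells. Pf4 and Itga2b were called higher at 48 h, and Gp1bb was not called. Gp9, under 1 FPKM in every group, went the other way, at 0.235 FPKM in floxed and 0.744 FPKM in wild type cells. The part of these marker differences in the results below was not tested. In bulk RNA, fewer cells of a type and less RNA per cell cannot be told apart. The members held 3.23% of all FPKM in floxed and 3.44% in wild type cells at 24 h, and 3.14% in floxed and 3.42% in wild type cells at 48 h.

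At 24 h most respiratory genes lay slightly lower in floxed cells, and few were called. At 48 h calls in complexes I and II were mostly lower, those in cytochrome c oxidase mostly higher, and most of the ATP synthase was not called. Differences between complexes were not tested. Of 89 members tested at 24 h, 10 were called lower and 1 higher. The share over all 10987 genes tested was 14.2% lower and 13.4% higher (27.6% in either direction), so fewer members were called than among genes at large. At 48 h 34 were called lower, 12 higher and 43 were not called, against 31% lower, 25.7% higher and 56.8% in either direction over 11039 genes. The median log2(FPKM + 1) difference over the 89 members was -0.12 at 24 h and -0.21 at 48 h, beside -0.01 and -0.06 over all expressed genes. The share called lower at 48 h was 38.2% over all members, near that background.

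**Figure D1:**
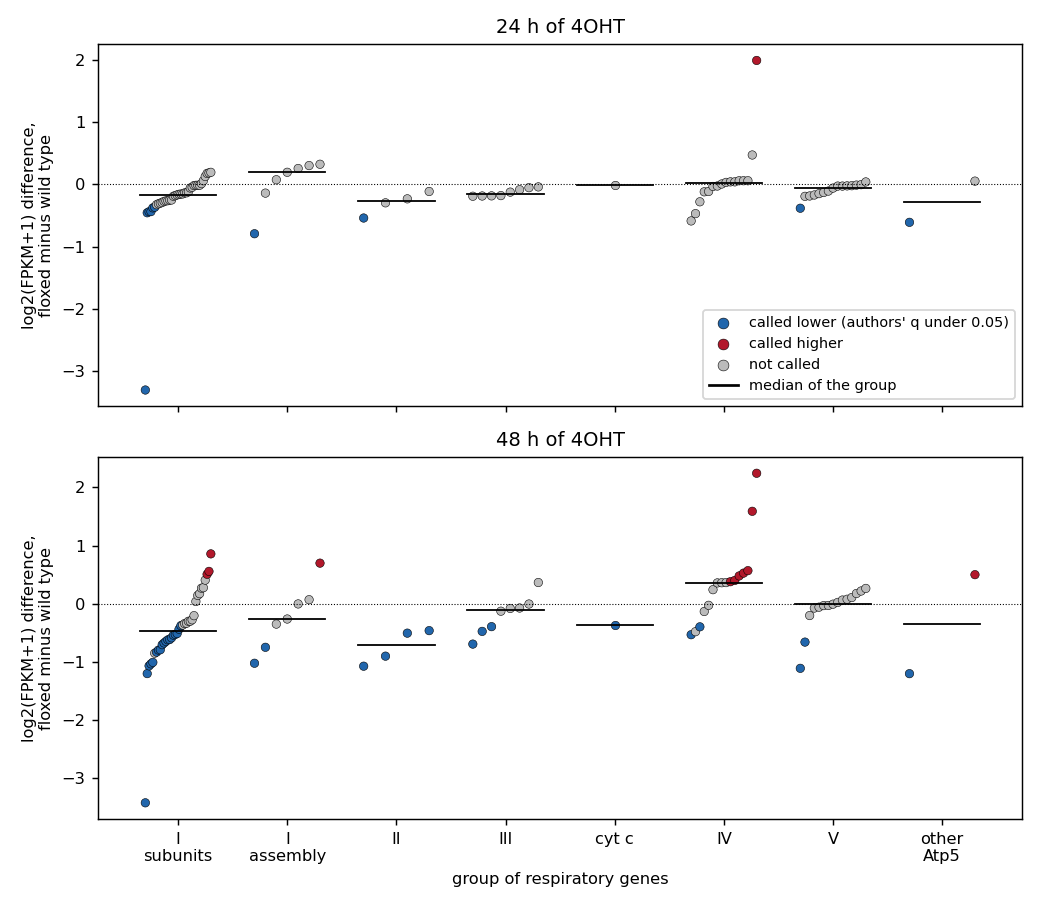
Difference of log2(FPKM + 1), floxed minus wild type, for each of the 89 members that reached 1 FPKM, by complex, at 24 h (upper) and 48 h (lower). Each point is a gene, blue and red mark the authors' q under 0.05, and the bar is the median, which at 48 h is -0.48 for complex I subunits, -0.71 for complex II and 0.36 for complex IV.

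Promoter windows were searched for the motifs of 4 regulators of these genes. The windows run from 250 bases before to 50 after the start in RefSeq for GRCm38.p6, and 77 of the 93 members had one. The NRF1 motif GCGCATGC was in 13 of the 77 (16.9%), beside 3.05% of 27025 genes with a window. The GABPA motif CCGGAAG was in 22.1% of members and 9.93% of all, the YY1 motif AAGATGGC in 14.3% and 3.19%, and the estrogen-related receptor motif TCAAGGTCA in 2.60% and 0.466%, each on either strand. Among expressed members with a window, the NRF1 motif was in 6 of 30 called lower at 48 h, 2 of 9 called higher and 5 of 36 not called, and the GABPA motif in 3, 2 and 12 of them. These matches are descriptions of letters, not of binding. The shares of all genes cover every gene with a window, expressed here or not, while 75 of the 77 members were expressed. A share over expressed genes alone was not computed.

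The 250 bases before the start are shown for the 3 subunit c genes, which differ in response, and for Sdhb and Cycs, both called lower at 48 h, and Cox6a1, called higher. Capitals mark motif matches, and a run of 10 capitals holds the NRF1 motif on both strands, overlapping by 6 bases. In Atp5g2 that run starts 42 bases before the start, in Atp5g3 the estrogen-related receptor motif starts 52 bases before it, and Atp5g1 holds none of the 4. The bases shown for Atp5g2 lie inside the gene as GENCODE M21 gives it (102662864 to 102672352, minus strand), whose start is further upstream. In Sdhb the NRF1 motif starts 54 bases and in Cycs 60 bases before the start. The window of Sdhb also holds a GABPA motif, which does not lie wholly within the bases shown. In Cox6a1 the NRF1 run starts 162 bases and a GABPA motif 16 bases before the start.
Atp5g1, chr11:96075632-96075881, minus strand: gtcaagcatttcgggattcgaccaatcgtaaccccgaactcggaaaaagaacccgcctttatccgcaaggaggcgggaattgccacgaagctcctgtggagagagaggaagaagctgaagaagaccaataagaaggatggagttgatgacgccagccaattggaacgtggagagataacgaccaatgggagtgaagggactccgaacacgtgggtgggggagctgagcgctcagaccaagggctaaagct
Atp5g2, chr15:102671048-102671297, minus strand: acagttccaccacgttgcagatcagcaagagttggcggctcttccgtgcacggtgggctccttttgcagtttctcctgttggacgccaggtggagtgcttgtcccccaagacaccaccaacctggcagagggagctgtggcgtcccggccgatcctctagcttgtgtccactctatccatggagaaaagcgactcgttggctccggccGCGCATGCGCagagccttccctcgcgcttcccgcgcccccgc
Atp5g3, chr2:73911327-73911576, minus strand: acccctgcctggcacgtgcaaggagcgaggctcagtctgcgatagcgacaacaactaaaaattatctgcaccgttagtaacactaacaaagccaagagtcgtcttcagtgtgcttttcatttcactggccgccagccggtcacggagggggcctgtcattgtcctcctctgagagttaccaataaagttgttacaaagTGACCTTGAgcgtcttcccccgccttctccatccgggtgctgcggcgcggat
Sdhb, chr4:140961021-140961270, plus strand: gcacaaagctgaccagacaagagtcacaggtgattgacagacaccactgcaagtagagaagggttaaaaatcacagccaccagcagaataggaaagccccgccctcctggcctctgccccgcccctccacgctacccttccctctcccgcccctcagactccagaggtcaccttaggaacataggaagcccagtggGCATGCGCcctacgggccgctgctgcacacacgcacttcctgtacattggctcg
Cycs, chr6:50566570-50566819, minus strand: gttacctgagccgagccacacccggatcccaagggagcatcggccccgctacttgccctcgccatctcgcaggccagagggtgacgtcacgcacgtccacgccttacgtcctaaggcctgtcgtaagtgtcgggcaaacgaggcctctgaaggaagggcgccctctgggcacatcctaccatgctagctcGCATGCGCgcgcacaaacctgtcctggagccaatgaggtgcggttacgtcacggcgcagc
Cox6a1, chr5:115348959-115349208, minus strand: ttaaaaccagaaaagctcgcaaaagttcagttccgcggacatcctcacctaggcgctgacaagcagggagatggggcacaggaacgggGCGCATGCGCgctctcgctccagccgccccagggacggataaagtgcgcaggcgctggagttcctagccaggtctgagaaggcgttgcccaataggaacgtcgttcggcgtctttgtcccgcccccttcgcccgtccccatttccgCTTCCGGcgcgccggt

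Complex I subunits lay lower in floxed cells by a small amount at 24 h and by more at 48 h. Of its 36 nuclear subunits in the table, 6 were called lower and 0 higher at 24 h, with a median difference of -0.17. At 48 h 19 were called lower, 3 higher and 14 were not called, with a median of -0.48. The share called lower was thus 16.7% at 24 h and 52.8% at 48 h, beside 14.2% and 31% of all tested genes. Under the scalings tried the 48 h median of complex I ran from -0.40 to -0.57, and that of all expressed genes from 0.01 to -0.15.

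The core of complex I, the subunits that carry electrons from NADH to coenzyme Q, had few calls. All 6 nuclear core genes described here had a lower value in floxed cells at both times. Of all 11158 expressed genes, 5699 had a lower value at 24 h and 6010 at 48 h. Only Ndufs3 was called at 24 h and only Ndufv1 and Ndufv2 at 48 h. Such counts are near the 14.2% and 31% of all tested genes called lower at 24 and 48 h. Ndufv1, which binds NADH, stood at 72.3 FPKM in floxed and 78.7 FPKM in wild type cells at 24 h, and at 51.7 FPKM in floxed and 75.8 FPKM in wild type cells at 48 h (q = 0.00315 in the authors' deposited table). Its partner Ndufv2, an iron-sulphur subunit, stood at 72.0 FPKM in floxed and 90.6 FPKM in wild type cells at 24 h. At 48 h it stood at 41.2 FPKM in floxed and 87.6 FPKM in wild type cells, 2.13-fold lower (q = 0.000165, the smallest the authors' deposited table holds for 48 h). The wild type value was nearly level over time and the floxed value was the one that moved.

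Ndufs3, a core subunit near the site where coenzyme Q is reduced, was 1.30-fold lower at 24 h (q = 0.0309 in the authors' deposited table). At 48 h it was at 78.2 FPKM in floxed and 101 FPKM in wild type cells, with a q of 0.0583 and no call. The large iron-sulphur subunit Ndufs1 stood at 45.4 FPKM in floxed and 55.3 FPKM in wild type cells at 48 h, and Ndufs8 at 91.5 FPKM in floxed and 116 FPKM in wild type cells. Neither was called. Ndufs7 stood at 63.3 FPKM in floxed and 115 FPKM in wild type cells at 48 h with a q of 0.764, and its locus entry is shared by 46 genes, Atp5d among them.

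Accessory subunits of complex I, which surround and stabilise the core, included the largest differences. Ndufb4 (chromosome 16 from 37647170 to 37654453 in mm10) stood at 156 FPKM in floxed and 194 FPKM in wild type cells at 24 h. At 48 h it stood at 80.2 FPKM in floxed and 186 FPKM in wild type cells, 2.32-fold lower (q = 0.000165 in the authors' deposited table). Ndufb9, at 109 FPKM in floxed and 225 FPKM in wild type cells, and Ndufb2, at 80.1 FPKM in floxed and 162 FPKM in wild type cells, had the same q. Both had been uncalled at 24 h. Ndufab1, the acyl carrier protein of mitochondria as well as a complex I subunit, stood at 66.7 FPKM in floxed and 117 FPKM in wild type cells at 48 h, and was 1.75-fold lower.

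A few accessory subunits were already lower at 24 h. Ndufa3, the most abundant complex I mRNA in wild type cells, stood at 276 FPKM in floxed and 375 FPKM in wild type cells at 24 h, and at 267 FPKM in floxed and 363 FPKM in wild type cells at 48 h. Ndufa7 was 1.36-fold lower at 24 h, and the difference was 1.54-fold at 48 h. Ndufb10 was 1.38-fold lower at 24 h, against 1.43-fold at 48 h. These genes kept a similar difference over both times. Ndufc1 stood at 165 FPKM in floxed and 213 FPKM in wild type cells at 24 h (q = 0.0450 in the authors' deposited table), and its ratio of 0.790 at 48 h was not called.

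The 3 complex I subunits called higher at 48 h had not been called at 24 h. Ndufa1, a small X-linked membrane subunit, stood at 246 FPKM in floxed and 136 FPKM in wild type cells at 48 h, 1.82-fold higher, after 146 FPKM in floxed and 145 FPKM in wild type cells at 24 h. Ndufa11 stood at 31.7 FPKM in floxed and 21.2 FPKM in wild type cells, and Ndufb6 at 264 FPKM in floxed and 186 FPKM in wild type cells. Ndufb8 and Ndufb7, at 289 and 274 FPKM in floxed and 257 and 226 FPKM in wild type cells, were the highest complex I subunits in floxed cells at 48 h and were not called.

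Ndufs5, an accessory subunit, showed the widest difference of any member, but the table does not let it be read alone. The gene, ENSMUSG00000028648.13, lies on chromosome 4 from 123712710 to 123718202 in mm10, and its locus entry also holds BC002163. Ndufs5 stood at 3.75 FPKM in floxed and 45.7 FPKM in wild type cells at 24 h, and at 3.001 FPKM in floxed and 42.0 FPKM in wild type cells at 48 h. BC002163 ran the other way, at 40.3 FPKM in floxed and 0.577 FPKM in wild type cells at 24 h, and at 31.3 FPKM in floxed and 0.671 FPKM in wild type cells at 48 h. The sum of both was 44.0 FPKM in floxed and 46.3 FPKM in wild type cells at 24 h, and 34.3 FPKM in floxed and 42.7 FPKM in wild type cells at 48 h. The ratio of the sums was 0.951 at 24 h and 0.803 at 48 h, against 0.0820 and 0.0714 for Ndufs5 alone. GENCODE M21 gives the name BC002163 to a processed pseudogene on chromosome 16 (42955631 to 42955949), so how reads were divided between the names is uncertain and was not tested.

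**Figure D2:**
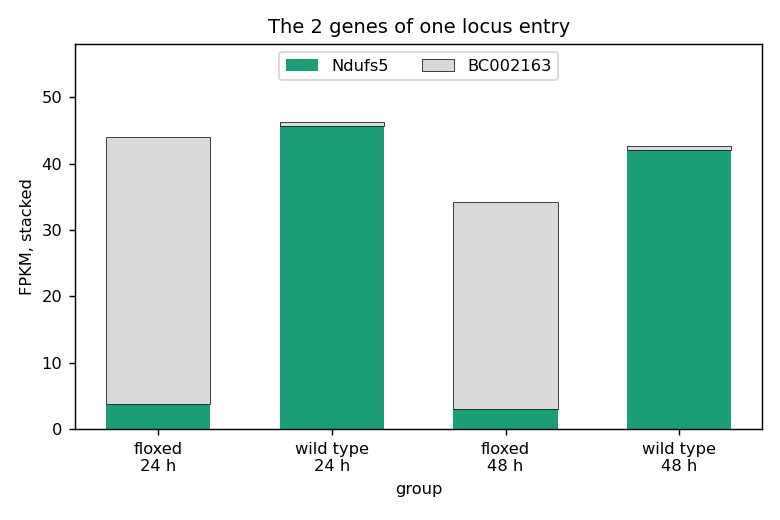
FPKM of Ndufs5 (green) and BC002163 (grey), which share a locus entry in the deposited table, stacked for each of the 4 groups, with 1 value of the authors per group. Ndufs5 is 3.75 FPKM in floxed and 45.7 FPKM in wild type cells at 24 h, while the stacks reach 44.0 and 46.3 FPKM.

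Assembly factors of complex I, which build the enzyme without staying in it, were mixed. Of 7 Ndufaf genes, 1 was called lower at 24 h, and 2 were called lower and 1 higher at 48 h. That makes 14.3% called at 24 h and 42.9% at 48 h, beside 27.6% and 56.8% of all tested genes. Ndufaf3, which acts early in assembly together with Ndufaf4, stood at 17.3 FPKM in floxed and 30.8 FPKM in wild type cells at 24 h, and at 14.1 FPKM in floxed and 29.7 FPKM in wild type cells at 48 h. The ratio of 0.474 at 48 h makes it 2.11-fold lower there. Ndufaf6 was 1.80-fold lower at 48 h, while Ndufaf7, a methyltransferase, was 1.68-fold higher, at 18.7 FPKM in floxed and 11.2 FPKM in wild type cells. Ndufaf2 stood at 22.8 FPKM in floxed and 27.5 FPKM in wild type cells at 48 h, and the least abundant, Ndufaf5, at 4.80 FPKM in floxed and 4.82 FPKM in wild type cells, with no call for either.

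Complex II, the succinate dehydrogenase that also serves the Krebs cycle, was the 1 complex whose subunits were all called at 48 h, and all 4 were lower. Over all tested genes 31% were called lower at that time. Sdha, the flavoprotein that oxidises succinate (chromosome 13 from 74322254 to 74350280 in mm10), stood at 126 FPKM in floxed and 148 FPKM in wild type cells at 24 h with no call. At 48 h it stood at 69.9 FPKM in floxed and 148 FPKM in wild type cells, 2.12-fold lower (q = 0.000165 in the authors' deposited table). Sdhb, the iron-sulphur subunit, stood at 64.5 FPKM in floxed and 92.1 FPKM in wild type cells at 48 h. The membrane anchors were lower too, with Sdhc at 75.3 FPKM in floxed and 142 FPKM in wild type cells at 48 h. Sdhd was the 1 subunit called at both times, at 195 FPKM in floxed and 283 FPKM in wild type cells at 24 h and at 199.9 FPKM in floxed and 276 FPKM in wild type cells at 48 h. The median difference of the complex was -0.27 at 24 h and -0.71 at 48 h, and summed FPKM at 48 h was 0.622 of wild type.

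Complex III had 3 of 8 subunits called lower at 48 h and 0 called at 24 h, although all 8 values were lower in floxed cells at 24 h. The 3 are 37.5% of the subunits, near the 31% of all tested genes called lower at 48 h. With 0 subunits called higher, calls were rarer in complex III than among all tested genes, of which 56.8% were called at 48 h and 27.6% at 24 h. Uqcrfs1, the Rieske iron-sulphur protein, stood at 99.0 FPKM in floxed and 131 FPKM in wild type cells at 48 h (q = 0.0330 in the authors' deposited table). The small subunits Uqcr11, at 252 FPKM in floxed and 409 FPKM in wild type cells, and Uqcrq, at 313 FPKM in floxed and 436 FPKM in wild type cells, were also called lower. The core proteins Uqcrc1, at 221 FPKM in floxed and 222 FPKM in wild type cells, and Uqcrc2, at 142 FPKM in floxed and 155 FPKM in wild type cells, were not called. Uqcrh, the hinge protein beside cytochrome c, went the other way without a call, at 532 FPKM in floxed and 413 FPKM in wild type cells (q = 0.0505). Cycs, which encodes cytochrome c, stood at 131 FPKM in floxed and 132 FPKM in wild type cells at 24 h and at 101 FPKM in floxed and 132 FPKM in wild type cells at 48 h, where it was called lower (q = 0.0441 in the authors' deposited table).

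Cytochrome c oxidase had more calls higher than lower at 48 h. Of its 16 expressed genes, counting Ndufa4, which belongs to this complex despite its name, 7 were called higher, 2 lower and 7 were not called. The share called higher was 43.8%, beside 25.7% of all tested genes. At 24 h only Cox6b2 had been called. Over the 16 genes the median difference was 0.02 at 24 h (-0.04 under quantile normalization) and 0.36 at 48 h. The complex median at 48 h stayed above 0 under all scalings tried, from 0.15 to 0.44.

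Among the common forms, Cox6c rose 1.48-fold at 48 h, with 770 FPKM in floxed and 519 FPKM in wild type cells (q = 0.00150 in the authors' deposited table). Cox6a1 (chromosome 5 from 115345642 to 115348981 in mm10) stood at 929 FPKM in floxed and 645 FPKM in wild type cells and Cox5b at 577 FPKM in floxed and 414 FPKM in wild type cells. Cox4i1, which sits on the catalytic core and was its highest subunit in wild type cells, stood at 919 FPKM in floxed and 707 FPKM in wild type cells, with a q close to the threshold (0.0459). Cox7a2 stood at 379 FPKM in floxed and 288 FPKM in wild type cells. These 5 genes had not been called at 24 h, where their ratios were between 0.923 and 1.04. Cox6b1, Cox7b and Ndufa4 had ratios of 1.28, 1.29 and 1.28 at 48 h and lay just outside the threshold, with q of 0.0536, 0.0511 and 0.0545, while Cox8a was at 787 FPKM in floxed and 667 FPKM in wild type cells.

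The common forms called lower at 48 h were Cox5a and Cox7a2l. Cox7c, at 374 FPKM in floxed and 382 FPKM in wild type cells at 48 h, was nearly level and not called. Cox5a, partner of Cox4i1 in the enzyme, stood at 368 FPKM in floxed and 358 FPKM in wild type cells at 24 h and at 270 FPKM in floxed and 356 FPKM in wild type cells at 48 h. Cox7a2l, which tethers complex III to complex IV in supercomplexes, was 1.45-fold lower at 48 h, at 123 FPKM in floxed and 178 FPKM in wild type cells.

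Tissue forms of cytochrome c oxidase were rare beside the common ones. Cox6b2, a form known from testis (chromosome 7 from 4751792 to 4753094 in mm10), stood at 5.17 FPKM in floxed and 0.558 FPKM in wild type cells at 24 h, and at 5.67 FPKM in floxed and 0.410 FPKM in wild type cells at 48 h. It was called higher at both times (q = 0.00119 and 0.000863 in the authors' deposited table). Its common counterpart Cox6b1 stood at 800 FPKM in floxed and 623 FPKM in wild type cells at 48 h. Cox4i2, known as a form induced by low oxygen, stood at 0.810 FPKM in floxed and 0.307 FPKM in wild type cells at 24 h without a call, and at 3.23 FPKM in floxed and 0.406 FPKM in wild type cells at 48 h with one. The muscle forms Cox6a2, at 0.451 FPKM in floxed and 1.03 FPKM in wild type cells at 48 h, and Cox7a1, at 15.9 FPKM in floxed and 17.5 FPKM in wild type cells, were not called.

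**Figure D3:**
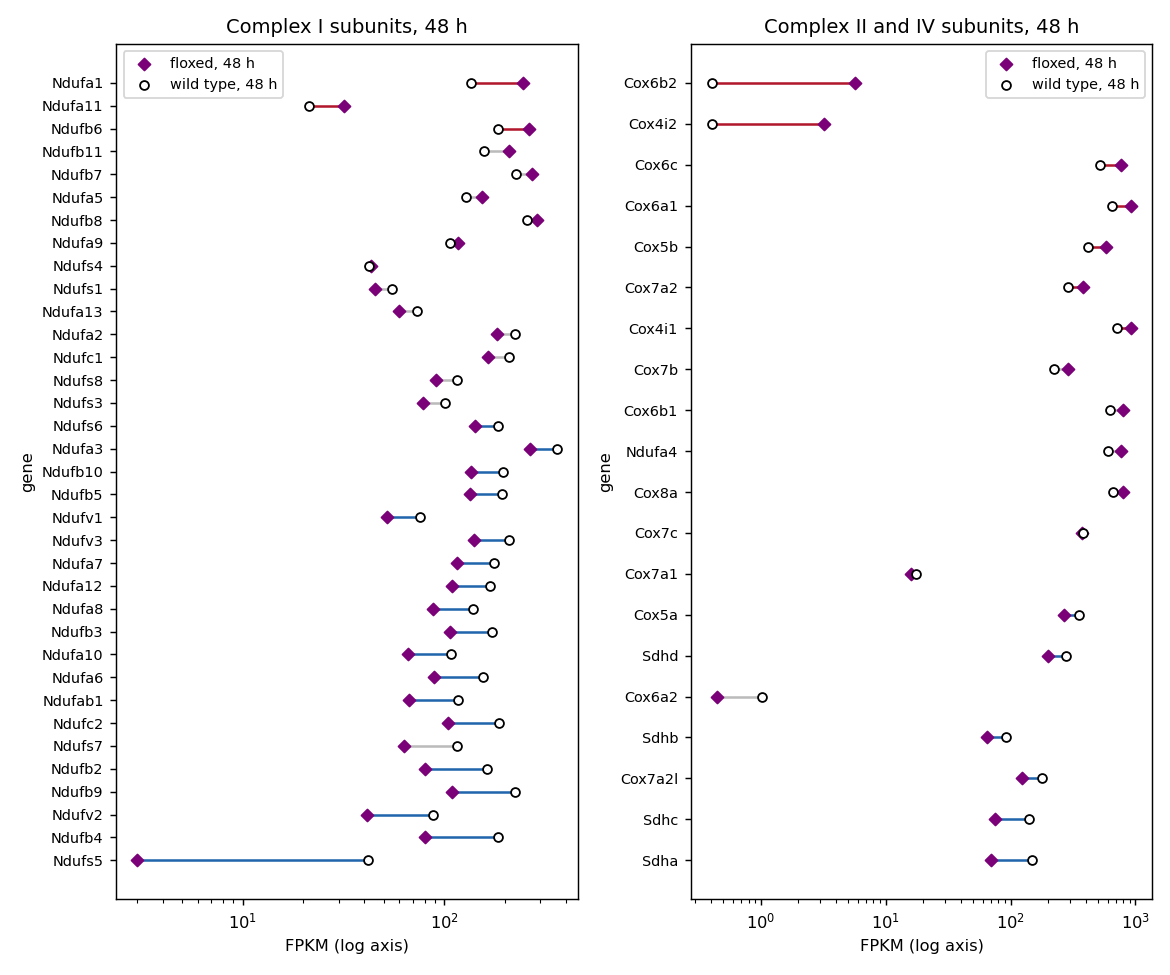
FPKM at 48 h (log axis) in floxed cells (filled diamonds) and wild type cells (open circles) for 35 complex I subunits (left) and the expressed complex II and IV subunits (right). Connecting lines are blue where the authors' table calls the gene lower, red where higher and grey where not called, and genes are ordered by their difference. Most complex I lines and all 4 Sdh lines are blue, and 7 complex IV lines are red.

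Few ATP synthase subunits were called. Of 15 subunit genes taken in by the rule, 1 was called lower at 24 h and 2 at 48 h, and 0 were called higher at either time. That makes 6.67% called at 24 h and 13.3% at 48 h, beside 27.6% and 56.8% of all tested genes. The rule does not take in every subunit gene, and Usmg5, which it leaves out, is given with the lists below. The catalytic head subunits Atp5a1, at 634 FPKM in floxed and 608 FPKM in wild type cells, and Atp5b, at 1189 FPKM in floxed and 1054 FPKM in wild type cells at 48 h, were not called. Atp5b was the most abundant member in all groups. The lowest in wild type cells was Atp5d, at 235 FPKM in floxed and 231 FPKM in wild type cells at 48 h, whose locus entry is the one shared by 46 genes. Atp5c1, of the rotating central stalk, was the exception in the head, at 277 FPKM in floxed and 313 FPKM in wild type cells at 24 h and at 195 FPKM in floxed and 309 FPKM in wild type cells at 48 h (1.59-fold lower, q = 0.000165 in the authors' deposited table). The other 13 subunit genes had ratios between 0.867 and 1.20 at 48 h.

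Subunit c, which forms the rotating ring of the ATP synthase, is encoded by the 3 genes Atp5g1, Atp5g2 and Atp5g3, whose mature proteins are the same. Only Atp5g2 was called. It stood at 433 FPKM in floxed and 565 FPKM in wild type cells at 24 h (q = 0.0271 in the authors' deposited table) and at 250 FPKM in floxed and 543 FPKM in wild type cells at 48 h, 2.17-fold lower. Atp5g1 stood at 349.5 FPKM in floxed and 403 FPKM in wild type cells at 48 h, and Atp5g3 at 776 FPKM in floxed and 781 FPKM in wild type cells. Atp5g2 made up 18.2% of the summed FPKM of the 3 genes in floxed cells and 31.4% in wild type cells at 48 h, and that sum was 1376 FPKM in floxed and 1727 FPKM in wild type cells. In the promoter windows above, the NRF1 run stands before the RefSeq start of Atp5g2 and the estrogen-related receptor motif before that of Atp5g3. The window of Atp5g1 holds none of the motifs. The same NRF1 run stands before Cox6a1, which was called higher at 48 h. Whether these motifs have any part in the differences was not tested.

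**Figure D4:**
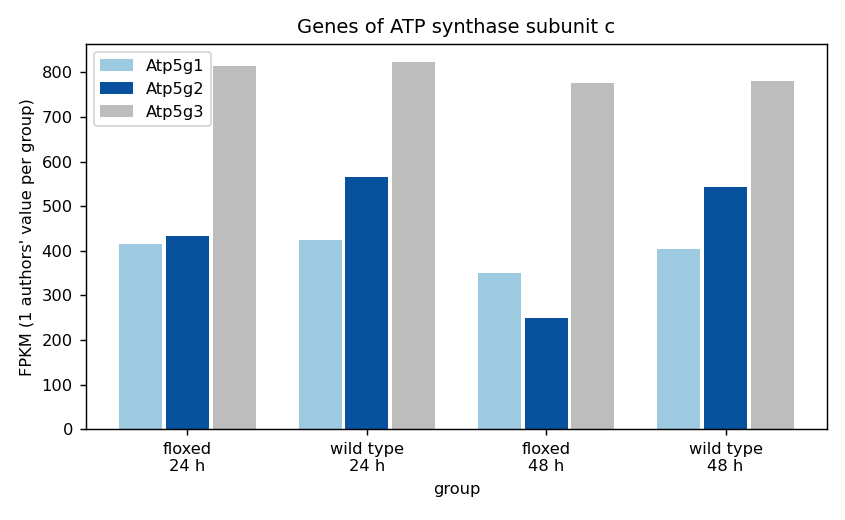
FPKM of Atp5g1, Atp5g2 and Atp5g3 in floxed and wild type cells at 24 and 48 h, with 1 value of the authors per group and no error bar. Atp5g2 is 250 FPKM in floxed and 543 FPKM in wild type cells at 48 h, while Atp5g3 is 776 FPKM in floxed and 781 FPKM in wild type cells.

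A pair of genes named after the ATP synthase are not subunits of it. Atp5s stood at 3.53 FPKM in floxed and 5.92 FPKM in wild type cells at 24 h and at 2.01 FPKM in floxed and 5.93 FPKM in wild type cells at 48 h, and was called lower at both times. Atp5sl, listed as Dmac2 in GENCODE M21, stood at 13.3 FPKM in floxed and 9.09 FPKM in wild type cells at 48 h and was called higher (q = 0.00587 in the authors' deposited table).

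Levels at 48 h were set against those at 24 h within each line for the 80 of 93 members that had at least 10 FPKM in all groups. In floxed cells the ratio of 48 h over 24 h ran from 0.515 (Ndufb4) to 1.69 (Ndufa1), and 22 of 80 lay within 10% of 1. In wild type cells it ran from 0.922 (Ndufb7) to 1.04 (Ndufab1), and 80 of 80 lay within 10% of 1. Over all 5580 genes of that level the share within 10% was 26.4% in floxed and 87.4% in wild type cells. The median ratio in floxed cells was 0.853 for complex I subunits, 0.703 for complex II and 1.25 for complex IV. No test of time was possible with 1 value per group, and the sources do not say whether both times were scaled together.

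**Figure D5:**
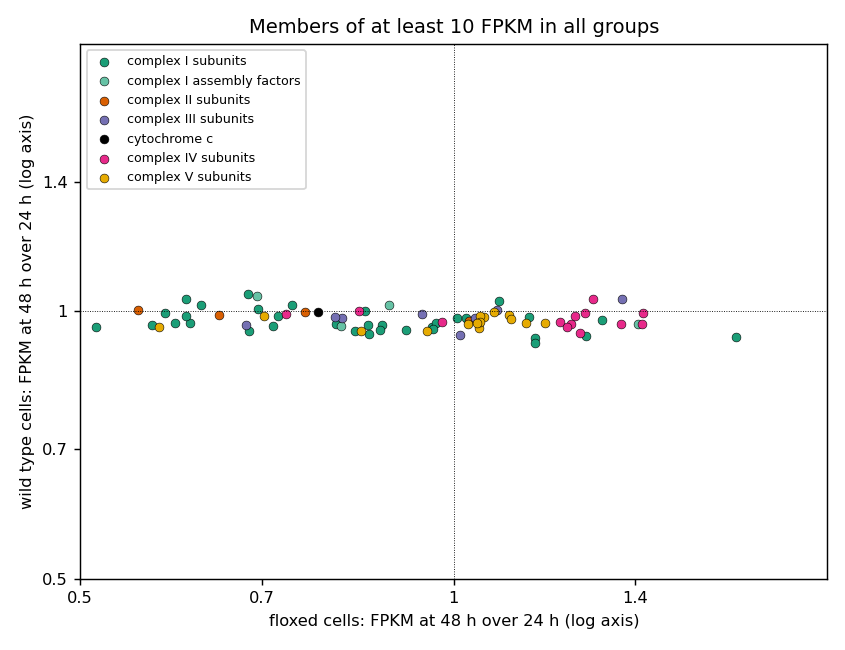
FPKM at 48 h over 24 h in floxed cells (horizontal, log axis) against wild type cells (vertical, log axis) for the 80 members with at least 10 FPKM in all groups, coloured by complex. Points spread from 0.515 to 1.69 along the floxed axis and stay between 0.922 and 1.04 along the wild type axis.

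Of 11 members called at 24 h, 9 were called in the same direction at 48 h, 8 lower (Atp5g2, Atp5s, Ndufa3, Ndufa7, Ndufaf3, Ndufb10, Ndufs5 and Sdhd) and 1 higher (Cox6b2). That is 81.8% of them, near the 77.1% of all 3037 genes called at 24 h. The other 2, Ndufc1 and Ndufs3, were not called at 48 h, and 0 were called in opposite directions. At 48 h 37 members were called that had not been called at 24 h, 26 lower and 11 higher, and 41 were called at neither time. Over all expressed genes, 2184 were newly called lower, 1604 newly higher and 4333 at neither time. Among genes not called at 24 h, the share newly called in either direction was thus about the same for members as for genes at large.

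Genes around the chain were examined as lists, to be read beside the 31% of all tested genes called lower and 25.7% called higher at 48 h. At 24 h those shares were 14.2% and 13.4%. At 48 h the Krebs cycle and pyruvate dehydrogenase genes had 10 called lower and 1 higher of 16, with Suclg2, a subunit of succinate-CoA ligase, 2.69-fold lower and the fumarase gene Fh1 2.32-fold lower. At 24 h that list had 1 called lower, Suclg2 at 43.4 FPKM in floxed and 58.8 FPKM in wild type cells. Of 6 other genes whose products feed coenzyme Q, 1 was called lower at 24 h, and 5 lower and 1 higher at 48 h, with Etfb, of the electron transfer flavoprotein, 2.24-fold lower and Dhodh, of pyrimidine synthesis, 2.23-fold lower. Of 13 coenzyme Q synthesis genes, 2 were called lower at 24 h, and 5 lower and 1 higher at 48 h, with Coq9 2.38-fold and Coq7 2.32-fold lower. The medians of these lists at 48 h were -0.45, -0.71 and -0.08, beside -0.06 over all expressed genes.

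Assembly factors outside the naming rule were counted by complex, and the ATP synthase list also holds genes that are not assembly factors. The share called in either direction at 48 h was 57.1% for complex I, 33.3% for complex II and 80.0% for complex III. It was 63.6% for complex IV and 50% for the ATP synthase list, beside 56.8% of all tested genes (31% lower and 25.7% higher). At 24 h 14.2% of all tested genes were called lower and 13.4% higher. Of 22 expressed factors of complex IV, 2 were called lower at 24 h, and 12 were called lower and 2 higher at 48 h. Cox18, which inserts Cox2 into the membrane, was 2.41-fold lower and Cmc2 2.08-fold lower, while Cmc1 had been 1.38-fold lower at 24 h. Of 5 factors of complex III, 3 were called lower at 24 h and 4 at 48 h, with Mnf1 at 46.5 FPKM in floxed and 133 FPKM in wild type cells and Bcs1l, which inserts the Rieske protein, 2.69-fold lower. Uqcc was 1.72-fold lower at 24 h. Of 7 further complex I factors, 2 were called lower at 24 h and 4 at 48 h, with Tmem186 2.05-fold and Tmem126b 1.90-fold lower. Of 3 complex II factors, 0 were called at 24 h and 1 lower at 48 h, Acn9, 2.56-fold. Of 6 further genes of ATP synthase assembly, inhibition or structure, 1 was called lower at 24 h and 3 at 48 h. Atpaf2, a chaperone of the head, was 1.96-fold lower at 48 h. Usmg5, a membrane subunit rather than an assembly factor, was 1.43-fold lower, and its locus entry is shared.

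Of 7 carriers and pores, 0 were called at 24 h, and 3 were called lower and 1 higher at 48 h. That makes 0% called at 24 h and 57.1% at 48 h, beside 27.6% and 56.8% of all tested genes. The ATP/ADP exchanger Slc25a5 stood at 752 FPKM in floxed and 1059 FPKM in wild type cells at 48 h, and the pore Vdac1 was 1.62-fold lower. Of 12 expressed regulators, 3 were called lower at 24 h and 5 at 48 h, and 0 higher at either time, which makes 25.0% called at 24 h and 41.7% at 48 h, beside 27.6% and 56.8% of all tested genes. Tfb1m, a methyltransferase of mitochondrial ribosomal RNA whose locus entry is shared, stood at 5.36 FPKM in floxed and 12.8 FPKM in wild type cells at 48 h. Ppargc1b, a coactivator of respiratory genes, stood at 0.483 FPKM in floxed and 1.70 FPKM in wild type cells at 48 h. Nrf1, which binds many respiratory promoters, stood at 15.8 FPKM in floxed and 17.2 FPKM in wild type cells and was not called.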

How the data were processed

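The labels describe 8 libraries, but the deposited table, by its headers, holds a single FPKM per gene and group, duplicates combined by the authors, and a q-value of the authors for each time. Tools named in the submitters' processing notes are Cufflinks 2.1, Cuffdiff and Bowtie2, and the build is mm10; strandedness and annotation are not given in the sources. FPKM is relative to all other RNA, so a change in total RNA per cell is not seen. The sum of FPKM was 656874 in floxed and 665619 in wild type cells at 24 h, and 699193 in floxed and 653299 in wild type cells at 48 h, where the 10 highest genes held 9.30% in floxed and 6.42% in wild type cells. Depth per library is unknown. Over genes under 0.05 FPKM in both groups, the most common floxed over wild type ratio was 0.834 at 24 h (68 of 1274 genes within 0.002) and 1.07 at 48 h (41 of 995), too few to recover whole reads.

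From the table, genes were kept where any group reached 1 FPKM (11158), without 27 whose names had become date numbers. A gene was tested if kept and its q was under 1, and called at q under 0.05, in the direction of the FPKM. Folds are ratios of FPKM and differences use log2(FPKM + 1), which understates change of low genes. With 1 value per group no test of spread between libraries could be run, and the authors' q stands in for it. Of the members, 13 lie in a locus entry with other genes, which makes their values uncertain: Atp5b, Atp5d, Atp5f1, Atp5j, Cox6a2, Ndufa13, Ndufa2, Ndufa4l2, Ndufb11, Ndufs1, Ndufs5, Ndufs7 and Uqcrc2. Genes with near-identical pseudogenes elsewhere are uncertain too. GENCODE M21, on the same assembly, placed 92 of 93 members. Genes were named by a rule: members called at 24 h, the 3 largest calls per complex and direction at 48 h, core subunits, paralog sets, the highest and lowest of each complex, and the 2 largest calls per list and time. Cox5b, Cox7b, Cox7b2, Cox7c, Cyc1, Ndufab1, Ndufaf4, Ndufb2, Ndufb7, Ndufb8, Ndufb9 and Nrf1, outside that rule, were named after their values were seen. A gene of complex I is counted but not reported singly here. The members and lists were chosen with earlier results of these data known. Scaling functions were checked on simulated data. Python 3.11.15, numpy 2.4.6, pandas 2.3.3 and matplotlib 3.10.9 were used.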

Additional observations from a re-analysis of the deposited data

How the results depend on the processing

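With q under 0.01 in place of 0.05, 7 members were called at 24 h, 6 of them lower, against 11 and 10. At 48 h that threshold left 37. No filter, a filter of 5 FPKM and leaving out shared locus entries gave 10 or 11 calls at 24 h and 45 or 46 at 48 h. The median difference of members ran from -0.12 to -0.10 at 24 h and from -0.30 to -0.13 at 48 h over pseudocounts of 0.1 and 5, the filters, rescaling to the same sum, by median ratio, and quantile normalization. The same sum moved the median of all expressed genes at 48 h to -0.15. No called member named in the text changed direction under these scalings and pseudocounts, but the ATP synthase median at 48 h (-0.01) was 0.07 by median ratio and -0.19 under quantile normalization; the cause was not tested. Summing Ndufs5 with BC002163, chosen after seeing the data, gave differences of -0.07 at 24 h and -0.31 at 48 h in place of -3.30 and -3.43. Leaving out each replicate in turn was not run, since levels are given only by group. No paired analysis was possible because the table holds no values per library.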
